A study of Homo sapiens with 4 samples.

Results

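The 36 genes described here encode aminoacyl-tRNA synthetases, the enzymes that join each amino acid to its tRNA, and they were taken by name from a table of 28058 genes. All 36 were found under their older symbols, 20 for the cytosolic and 16 for the mitochondrial set. Shares of synthetase counts given below are over these 36 genes, which do not include every mitochondrial synthetase. GARS and KARS, counted here as cytosolic, each encode the glycyl or lysyl enzyme of both compartments. RNA was sequenced from cells labelled SH-SY5Y, the name of an established human neuroblastoma cell line. There were 2 libraries from cells given shock wave treatment (SWT) and 2 libraries from untreated control cells. SWT is a train of acoustic pressure pulses, here 300 impulses of 0.08 mJ/mm2 at 3 Hz, delivered 7 cm from the applicator to flasks in a bath at 37 °C. RNA was taken 6 h after SWT. The sample protocols describe cells that received the pulses themselves, whereas the design text of the series mentions exosomes, and the sources used here do not resolve this. No label states that replicates were separate cultures, so p-values reflect the spread between these 4 libraries, which may be technical.

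Cells need one set of charging enzymes for translation in the cytosol and another for the proteins made inside mitochondria. Most mitochondrial synthetases are separate nuclear genes whose products are imported. In the cytosol, several synthetases sit in a multisynthetase complex held together by scaffold proteins. Many cytosolic synthetase genes are also known targets of ATF4, a transcription factor of the amino acid and endoplasmic reticulum stress response, which binds a composite C/EBP-ATF element.

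Library totals ran from 9888263 to 11686808 counts, and 15715 to 15988 genes had at least 1 count. Checked against their label, the cells carried 11 of 12 mesenchymal neuroblastoma markers at 10 CPM (counts scaled to the library's size) or more in every library. Of 14 noradrenergic neuroblastoma markers, 2 reached that level everywhere. The noradrenergic markers PHOX2A, TH, DBH, CHGA and MYCN had 0 counts in all libraries. TH lies within 1 Mb of the member CARS, in the neighbourhood described below, so its zero alone is not read as absence. The markers thus showed a mesenchymal more than a noradrenergic profile. The name of the line rests on the label only, and the identity of the cells was not tested. The summed noradrenergic level was 75.5 to 84.3 CPM in SWT libraries, against 79.2 to 80.1 CPM in control libraries. The 20 heart muscle genes summed to 39.8 and 11.5 CPM in the SWT libraries and to 8.88 and 378 CPM in the control libraries; their part in the results below was not tested.

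Cytosolic synthetase genes were abundant and fairly even in level. Per kilobase of transcript, the 19 cytosolic genes with counts had a median of 70.4 CPM, and the order ran from KARS at 163 ± 2.15 CPM per kb and EPRS at 132 ± 4.95 CPM per kb down to WARS at 28.8 ± 1.29 CPM per kb (SD, n = 4 libraries). CARS, the cysteinyl enzyme, stood far below at 0.582 ± 0.0959 CPM per kb. Its neighbourhood on chromosome 11 was also low: within 1 Mb, 13 of 27 protein-coding genes (48.1%) had 0 counts in every library, against 24% across the genome, and the median of their mean counts was 0.25, against 78.5. Neighbourhoods with many zeros also occurred around members with more counts: 60% of 10 genes around WARS2 and 46.7% of 15 around EARS2. Whether the neighbourhood bears on the CARS count was not tested. The CARS value is kept as uncertain and is not read as the level of the enzyme's mRNA. EPRS encodes a fused glutamyl and prolyl enzyme. It took 14.3% and 14.8% of the cytosolic synthetase counts in the SWT libraries, against 14.1% and 14.1% in the control libraries.

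The phenylalanyl enzyme is built from FARSA (alpha) and FARSB (beta) subunits. The FARSA level per kb was 1.81 ± 0.147 times that of FARSB (SD, n = 4). Divided by coding length instead of transcript length, the ratio was 1.13, so the apparent excess of one subunit depends on the length used.

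**Figure D1:**
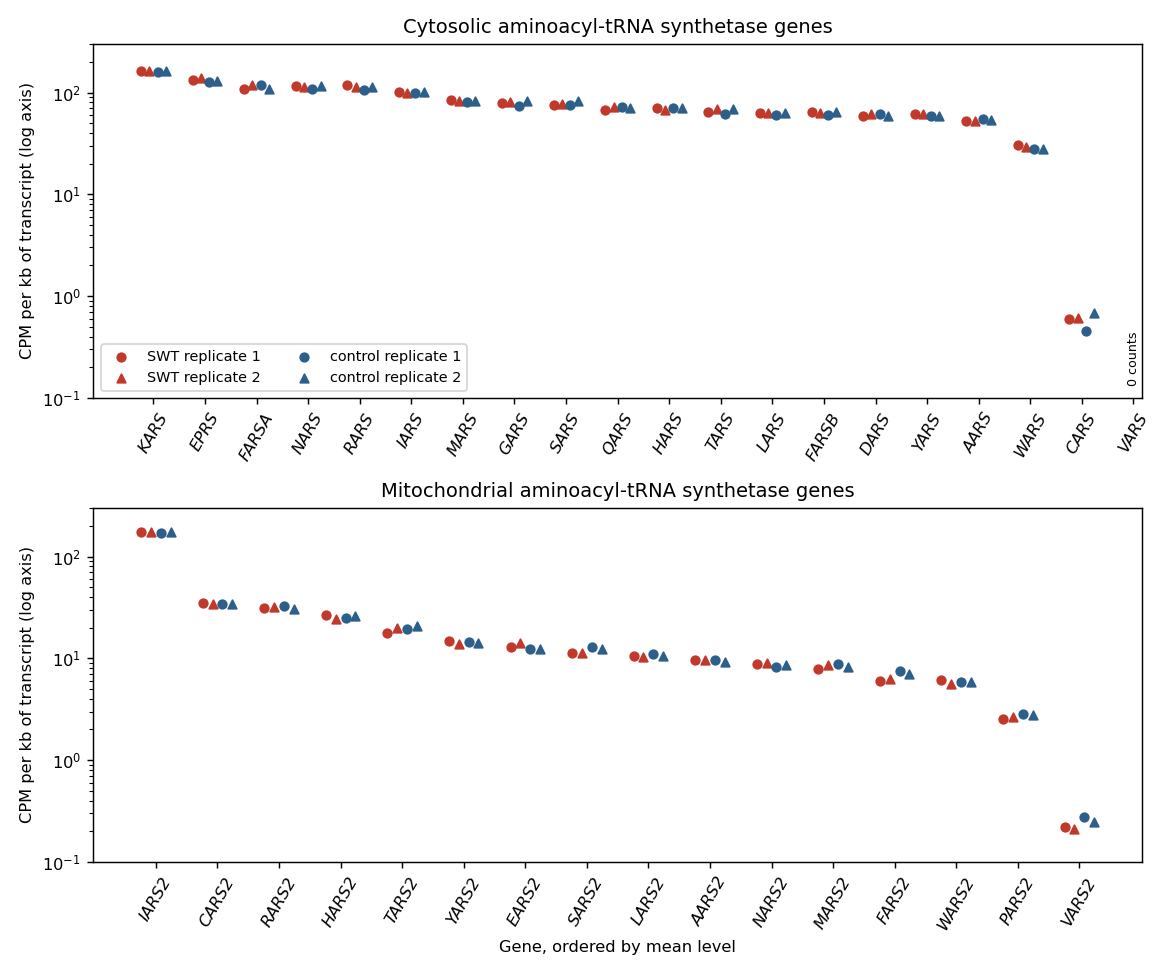
Level of every synthetase gene in each library, in CPM per kb of transcript on a log axis, cytosolic above and mitochondrial below, ordered by mean. SWT libraries are red and control libraries blue, and the points of each gene lie close together; IARS2 and CARS stand apart from their sets.

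Mitochondrial synthetase genes were lower, with IARS2 as the exception. The 16 genes had a median of 11.3 CPM per kb and ran from 0.238 (VARS2) to 173 CPM per kb (IARS2). IARS2, the mitochondrial isoleucyl enzyme, stood at 615 and 615 CPM in SWT libraries and 605 and 628 CPM in control libraries, so the groups overlapped. Its level per kb was 16.3 times the median of the other mitochondrial genes. IARS2 supplied 54.7% and 54.5% of the counts of the 16 listed mitochondrial genes in SWT libraries, against 53.8% and 55.0% in control libraries. The genes EPRS and IARS2 are neighbours on chromosome 1, with starts facing away from each other 47.4 kb apart.

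The cytosolic gene exceeded its mitochondrial counterpart in most pairs. Among 15 mitochondrial enzymes compared with their partner, the partner was higher per kb in 13, in all 4 libraries each. Those ratios ran from 2.74 (HARS over HARS2) through a median of 5.91 to 49.1 (EPRS over PARS2). The exceptions were isoleucine and, on the uncertain CARS count, cysteine. The IARS over IARS2 ratio was 0.578 ± 0.00460 in SWT libraries and 0.575 ± 0.00430 in control libraries (SD, n = 2 each). CARS over CARS2 was 0.0174 ± 0.000483 in SWT libraries and 0.0164 ± 0.00472 in control libraries. The low CARS level rests on 16 and 19 counts in SWT libraries and 14 and 18 in control libraries, and lies in the low-count neighbourhood described above, so the cysteine ratio is imprecise and is not read as a difference between the enzymes. CARS2 had the lowest coefficient of variation of the 32 members at 10 CPM or more, 0.576% over the libraries. The median was 3.55% and the highest value 10.4%, for FARS2. CARS2 had 637 to 749 counts a library and FARS2 102 to 147. Counting error was not separated from these values, so their order is not read as a trait of the genes.

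**Figure D2:**
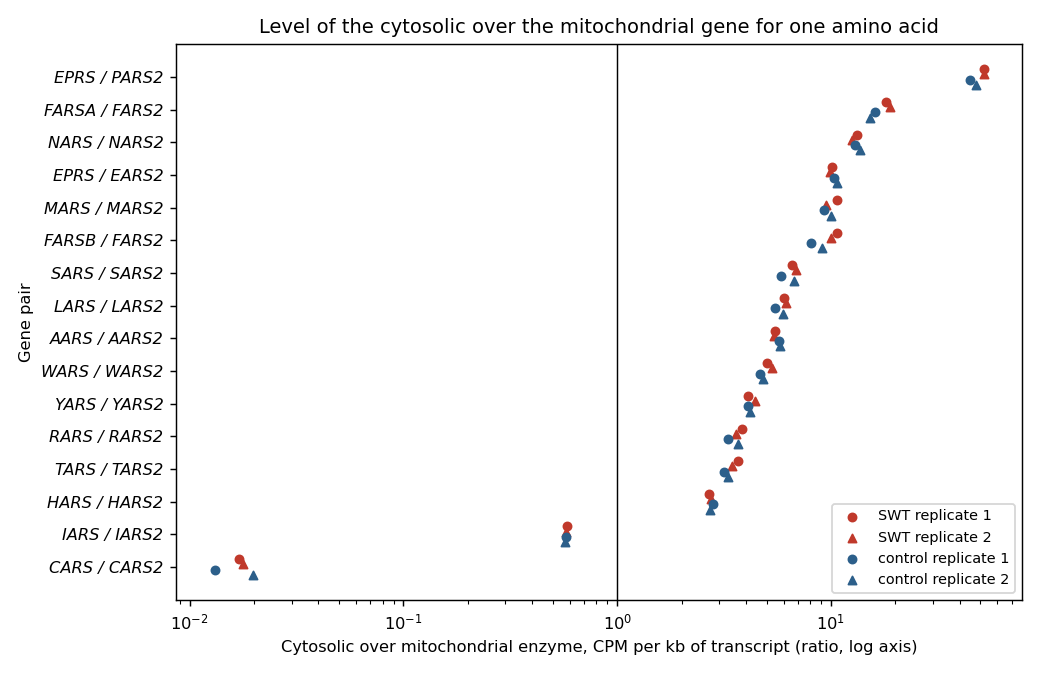
Ratio of the cytosolic to the mitochondrial gene for each amino acid, in level per kb of transcript on a log axis, with one point per library. All pairs except IARS over IARS2 and CARS over CARS2 lie to the right of 1 in every library.

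HARS and HARS2, the histidyl enzymes of cytosol and mitochondria, lie head to head on chromosome 5. The sequence between the RefSeq starts used here lies upstream of both starts. It is shown because this is the pair with the smallest excess of the cytosolic gene. RefSeq on GRCh38.p14 places the HARS start at position 140691370 on the minus strand and the HARS2 start at 140691455 on the plus strand, leaving 84 bases with a GC content of 59.5% (chr5:140691371-140691454, plus strand).
HARS-HARS2 stretch: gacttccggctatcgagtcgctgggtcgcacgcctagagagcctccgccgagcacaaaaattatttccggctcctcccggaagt
HARS stood at 172 and 163 CPM in SWT libraries and at 172 and 172 CPM in control libraries. HARS2 stood at 66.2 and 61.0 CPM in SWT libraries and at 62.9 and 64.9 CPM in control libraries. In both genes the groups overlapped. In GENCODE 29 HARS reaches to position 140691862 and HARS2 begins at 140691426, so the genes overlap there. The stretch above therefore lies between the RefSeq starts only. The genes share 437 exonic bases on opposite strands in GENCODE 29. The strand setting of the counting is not given in the sources used here, so reads from these bases could belong to either gene.

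VARS, the cytosolic valyl enzyme, had 0 counts in all 4 libraries. Counting error alone would allow up to 0.257 to 0.303 CPM, but only if reads of the gene could be counted. VARS2, the mitochondrial valyl enzyme, had 9 and 10 counts in SWT libraries against 13 and 10 in control libraries. The zero is shared by the chromosome 6 neighbourhood and is therefore not read as absence of the enzyme: within 1 Mb of VARS, 71 of 89 protein-coding genes (79.8%) had 0 counts in every library, against 4587 of 19142 (24%) across the genome. Around VARS2 it was 71 of 86. GTF2H4 shares 22% of the exonic bases of VARS2 on the same strand, so the VARS2 count is uncertain too. Because VARS was not measured, valine has no pair ratio.

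**Figure D3:**
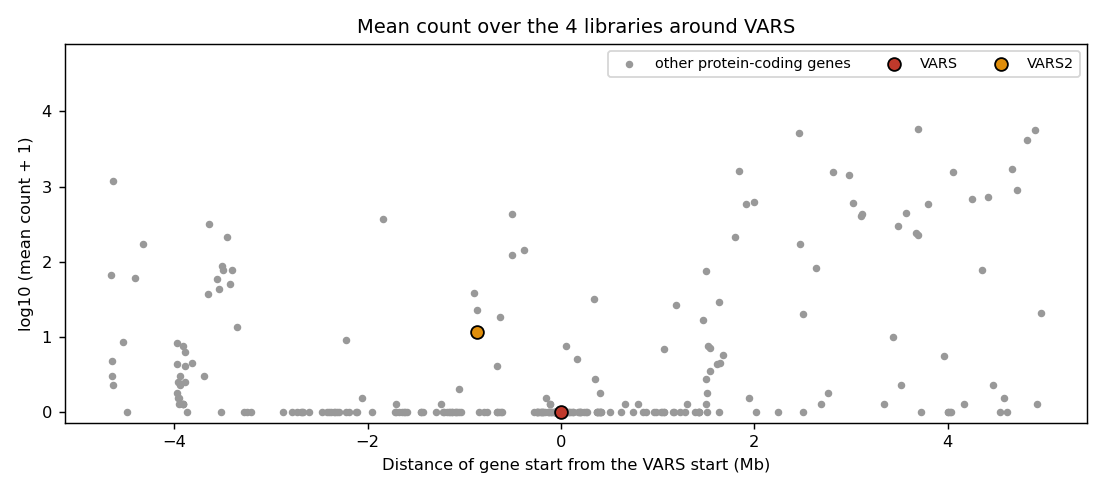
Mean count over the 4 libraries, as log10 of the mean count plus 1, for protein-coding genes by distance of their start from the VARS start in Mb. VARS lies among many genes with 0 counts, and VARS2 lies among them with few counts.

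No synthetase gene passed the test between SWT and control cells. edgeR's quasi-likelihood test called 0 of the 35 members tested at an adjusted p under 0.05, beside 0 of all 12399 genes (0%). None of the 35 had an unadjusted p under 0.05, beside 5.77% of all genes (2.81% higher and 2.96% lower in SWT). DESeq2, limma-voom and limma on the deposited log2 values also called 0 members, with 0 at an unadjusted p under 0.05. The precision differed between the sets. Of the cytosolic genes, 18 of 19 had a 95% interval of the log2 fold change within ±0.25, as did 7 of 16 mitochondrial genes and 5180 of the 12399 genes. A change of more than 0.25 on the log2 scale is outside those intervals, which cover the spread between these libraries only.

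The cytosolic set showed small positive differences that did not pass. Of 19 tested genes, 13 had a log2 fold change (SWT over control) above 0 and 6 below. The median was 0.02 and the range ran from -0.05 to 0.11 (CARS, on its few counts). Over all genes the median was -0.00078, with 49.7% above 0. Both SWT libraries lay above both control libraries in CPM for 6 cytosolic genes (31.6%), beside 17.3% of all genes, and below for AARS only (5.26%), beside 18% of all genes. Without control replicate 1 the cytosolic median was -0.012, so its sign rests on that library. Members were chosen with earlier results of these data known, so the shares of this set and of the mitochondrial set below are descriptions only.

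WARS, the tryptophanyl enzyme and also an interferon-inducible gene, had 93.7 and 90.6 CPM in SWT libraries, against 85.2 and 86.1 CPM in control libraries. Both SWT values were above both controls, by an edgeR log2 fold change of 0.10 (SE 0.06; adjusted p = 0.875). RARS, the arginyl enzyme of the multisynthetase complex, had 255 and 246 CPM in SWT libraries and 229 and 241 CPM in control libraries. These groups also did not overlap, with an edgeR log2 fold change of 0.09 (SE 0.06; adjusted p = 0.886). EPRS had 661 and 695 CPM in SWT libraries and 635 and 658 CPM in control libraries, narrowly without overlap. In the edgeR fit EPRS was at 0.07 on the log2 scale (SE 0.05; adjusted p = 0.902). YARS, the tyrosyl enzyme, had 198 and 198 CPM in SWT libraries and 190 and 191 CPM in control libraries, again without overlap, at an edgeR log2 fold change of 0.06 (SE 0.06; adjusted p = 0.929).

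QARS, the glutaminyl enzyme, and SARS, the seryl enzyme, had the lowest fold changes of the cytosolic set. QARS had 189 and 202 CPM in SWT libraries and 206 and 199 CPM in control libraries, and SARS 139 and 144 CPM in SWT libraries against 141 and 152 CPM in control libraries. Both overlapped, at log2 fold changes of -0.05 for QARS (SE 0.06; edgeR adjusted p = 0.941) and -0.05 for SARS (SE 0.06; edgeR adjusted p = 0.942). GARS and KARS serve both compartments. GARS had 210 and 210 CPM in SWT libraries and 196 and 216 CPM in control libraries, an edgeR log2 fold change of 0.03 (SE 0.06; adjusted p = 0.974), with overlap. KARS had 329 and 330 CPM in SWT libraries and 321 and 329 CPM in control libraries, narrowly without overlap, an edgeR log2 fold change of 0.02 (SE 0.05; adjusted p = 0.979).

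The mitochondrial set was centred slightly below 0. Of 16 genes, 5 had a log2 fold change above 0 and 11 below, with a median of -0.01 and a range from -0.29 (VARS2, on its few counts) to 0.14. In CPM, 3 lay above in both SWT libraries (18.8%) and 5 lay below (31.2%), beside the 17.3% and 18% of all genes. EARS2, the mitochondrial glutamyl enzyme, had 51.7 and 55.5 CPM in SWT libraries and 48.7 and 48.8 CPM in control libraries. It had the smallest p of all members, with no overlap and an edgeR log2 fold change of 0.14 (SE 0.08; adjusted p = 0.852).

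FARS2, the mitochondrial phenylalanyl enzyme, had 10.1 and 10.6 CPM in SWT libraries and 12.7 and 11.9 CPM in control libraries. SWT values lay below both controls, with an edgeR log2 fold change of -0.25 (SE 0.14; adjusted p = 0.859). SARS2, the mitochondrial seryl enzyme, had 23.4 and 23.4 CPM in SWT libraries and 26.7 and 25.2 CPM in control libraries, also lower without overlap, at -0.15 (SE 0.10; edgeR adjusted p = 0.893). SARS2 shares 349 exonic bases with MRPS12 on the opposite strand and 1492 (46.2%) with AC011455.2 on the same strand. AC011455.2 is not among the genes counted by symbol, and the effect of either overlap on the SARS2 count was not tested. TARS2, the mitochondrial threonyl enzyme, had 48.3 and 54.8 CPM in SWT libraries and 52.8 and 57.1 CPM in control libraries, overlapping, at -0.09 on the log2 scale (SE 0.08; edgeR adjusted p = 0.928).

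**Figure D4:**
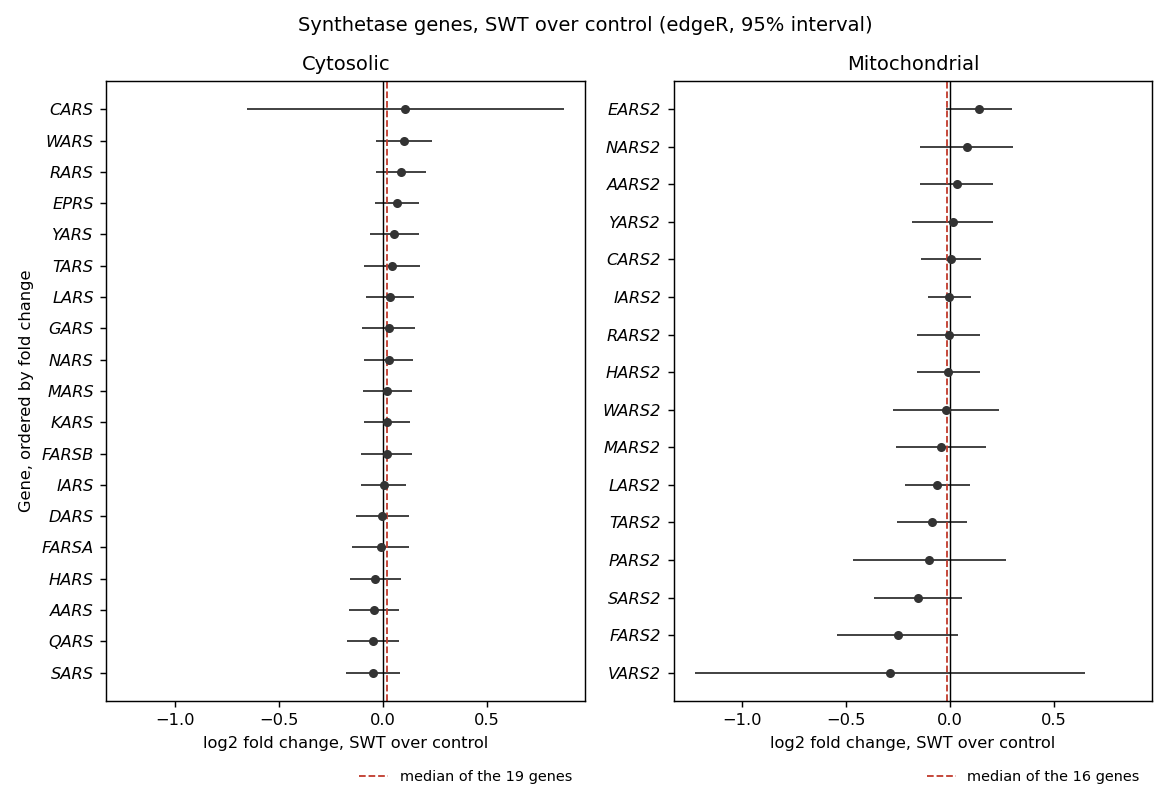
log2 fold change, SWT over control, of each tested synthetase gene with its 95% interval from edgeR, cytosolic left and mitochondrial right. Every interval includes 0, and the dashed medians lie at 0.02 for the cytosolic and -0.01 for the mitochondrial genes; CARS and VARS2 have the widest intervals.

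The balance of the compartments shifted by 0.031 on the log2 scale towards the cytosolic genes in SWT libraries, and this was not tested. Mitochondrial genes made up 19.5% (95% exact Clopper-Pearson interval 19.2% to 19.9%) and 19.4% (19.1% to 19.7%) of synthetase counts in SWT libraries, against 19.9% (19.6% to 20.3%) and 19.7% (19.4% to 20.04%) in control libraries. Both SWT shares were lower than both control shares, but the intervals, which cover counting error only, overlap. The log2 ratio of cytosolic to mitochondrial CPM was 2.04 and 2.05 in SWT libraries and 2.01 and 2.03 in control libraries. With 2 libraries a group the exact permutation p cannot go below 0.333. Without IARS2 the log2 ratio was 3.18 and 3.19 in SWT libraries and 3.12 and 3.18 in control libraries. All synthetase counts together were 0.578% and 0.580% of the library in SWT cells and 0.562% and 0.579% in control cells.

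**Figure D5:**
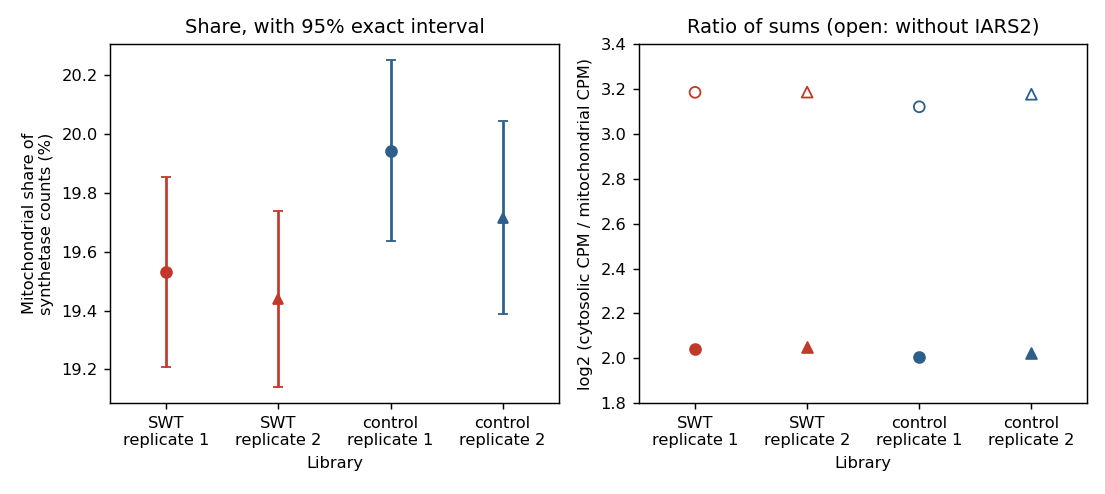
Left, the mitochondrial share of synthetase counts in each library with its 95% exact interval. Right, the log2 ratio of summed cytosolic to summed mitochondrial CPM, with open symbols leaving out IARS2; SWT values lie at 2.04 and 2.05 and control values at 2.01 and 2.03.

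GC content moved with the group contrast. Across 6325 genes, SWT minus control correlated with GC content at a Spearman rho of -0.415, a description across genes, which are not independent. The difference between the SWT libraries gave 0.385 and that between the control libraries -0.479, so trends of this size also separated replicates. The median GC content was 48.6% for cytosolic and 51.2% for mitochondrial members. After each library's trend with GC content and length was removed, the medians were 0.0097 for cytosolic and -0.037 for mitochondrial genes.

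Of the 8 members of the multisynthetase complex, 6 had a fold change above 0, at a median of 0.02, and the 11 tested outside it had a median of 0.03. The difference between these groups was not tested. The scaffold genes AIMP1, AIMP2 and EEF1E1 were all above 0, at a median of 0.08. AIMP1 had 87.8 and 83.4 CPM in SWT libraries and 73.7 and 79.3 CPM in control libraries. Its groups did not overlap, at a log2 fold change of 0.16 (SE 0.07), with an unadjusted p of 0.0294 and an edgeR adjusted p of 0.838. AIMP2 had an edgeR log2 fold change of 0.08 (SE 0.08; adjusted p = 0.930) and EEF1E1 of 0.05 (SE 0.14; edgeR adjusted p = 0.987), both with overlapping groups.

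The partners of mitochondrial charging MTFMT, GATC and QRSL1 did not pass either. MTFMT, which formylates the initiator methionyl-tRNA, had 17.3 and 17.8 CPM in SWT libraries and 14.9 and 18.3 CPM in control libraries, an edgeR log2 fold change of 0.08 (SE 0.13; adjusted p = 0.955). GATC and QRSL1, subunits of the amidotransferase that makes glutaminyl-tRNA in mitochondria, had log2 fold changes of 0.04 (SE 0.08; edgeR adjusted p = 0.974) and 0.05 (SE 0.10; edgeR adjusted p = 0.98). Of 5 other charging genes tested, 2 were above 0 and 0 were called. The proofreading enzyme DTD1 gave 0.05 (SE 0.08; edgeR adjusted p = 0.956), TARSL2, a further threonyl synthetase, -0.08 (SE 0.14; edgeR adjusted p = 0.960) and SEPSECS, which makes selenocysteinyl-tRNA, -0.03 (SE 0.14; edgeR adjusted p = 0.993).

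The ATF4 element was looked for in the promoters because many cytosolic synthetase genes are known ATF4 targets. In RefSeq windows from 250 bases before to 50 after the start (GRCh38.p14; 30 of 36 members had one), the letters TGATGCAA on either strand occurred in 6 of 16 cytosolic and 0 of 14 mitochondrial promoters, against 295 of 27305 (1.08%) of all promoters. The stretches around the match follow, 5′ to 3′ on the gene's strand, with the match in capitals; it reads TTGCATCA where it lies on the opposite strand.
TARS, chr5:33440947-33440994, plus strand: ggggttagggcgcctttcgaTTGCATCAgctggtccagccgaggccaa
IARS, chr9:92293683-92293730, minus strand: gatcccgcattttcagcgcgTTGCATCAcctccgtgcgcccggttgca
CARS, chr11:3057398-3057445, minus strand: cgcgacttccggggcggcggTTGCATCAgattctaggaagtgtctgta
MARS, chr12:57488044-57488091, plus strand: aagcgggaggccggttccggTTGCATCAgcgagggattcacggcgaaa
AARS, chr16:70289666-70289713, minus strand: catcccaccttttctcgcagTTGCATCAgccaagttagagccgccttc
NARS, chr18:57621807-57621842, minus strand: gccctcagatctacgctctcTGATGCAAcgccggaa
All but one lie within 30 bases of the start and the AARS match begins 187 bases before it. With the looser letters TGATGNAA the match was found in 7 of 16 cytosolic and 1 of 14 mitochondrial promoters, and in 4.46% of all. The E-box CACGTG was found in 1 of 16 cytosolic and 3 of 14 mitochondrial promoters, against 8.77% of all. A match is a description of letters, not evidence of binding.

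In the SWT comparison, the 6 genes with the element had a median log2 fold change of 0.03, and the 10 cytosolic genes with a promoter and no match had 0.02. The difference between these medians was not tested, and the 6 genes include CARS with its few counts.

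Neither ATF4 nor any other tested target was called. ATF4 had 145 and 148 CPM in SWT libraries and 145 and 151 CPM in control libraries, with overlap, at an edgeR log2 fold change of -0.01 (SE 0.06; adjusted p = 0.996). DDIT3, encoding the stress factor CHOP, had 13.5 and 12.2 CPM in SWT libraries and 11.6 and 14.5 CPM in control libraries, at -0.02 (SE 0.14; edgeR adjusted p = 0.997). It shares 355 exonic bases with MARS on the opposite strand. Of 28 tested targets that are not synthetases, leaving out ATF4 itself, 15 were above 0 and 13 below, with a median of 0.0087. Both SWT libraries lay above both control libraries in CPM for 9 of the 28 (32.1%), beside 17.3% of all genes. Both lay below for 1 (3.57%), beside 18% of all genes. Of the 28, 7 (25%) had an unadjusted p under 0.05 in edgeR, beside 5.77% of all genes, and 0 passed after adjustment. Among these 7, SLC7A11, SLC7A5, SLC3A2, CHAC1, ALDH1L2 and XPOT were above 0 and DDIT4 was below. The list was chosen with earlier results of these data known. Its shares are therefore descriptions, and the list as a set was not tested.

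SLC7A11, the cystine importer, had 229 and 230 CPM in SWT libraries and 165 and 199 CPM in control libraries. The groups did not overlap, at an edgeR log2 fold change of 0.34 (SE 0.07; adjusted p = 0.759). DDIT4, an inhibitor of mTORC1 signalling, had 248 and 287 CPM in SWT libraries and 346 and 282 CPM in control libraries, overlapping, at -0.23 (SE 0.08; edgeR adjusted p = 0.838). CHAC1, which degrades glutathione, had 4.47 and 6.10 CPM in SWT libraries and 3.27 and 3.94 CPM in control libraries, without overlap, at 0.57 (SE 0.23; edgeR adjusted p = 0.838). Without the filter on low counts, edgeR called DDIT4 and SLC7A11, beside 63 of all 17737 genes. Without control replicate 2 the log2 fold changes were 0.47 for SLC7A11 and -0.37 for DDIT4. Without control replicate 1 they were 0.21 and -0.075. Asparagine synthetase, ASNS, a classic target, had too few counts to test, at 0.496 and 0.515 CPM in SWT libraries and 0.603 and 0.910 CPM in control libraries.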

How the data were processed

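The authors deposited raw counts per gene symbol and a table of log2 values for 17151 genes. TruSeq stranded mRNA libraries were made, per the labels' protocols. Trimmomatic 0.36, FastQC 0.11.5, STAR 2.5.3a, HTSeq, DESeq2 and hg38 stand in the submitters' processing notes, without roles; annotation and strand setting are not given in the sources used here.

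Counts were tested with edgeR 4.0.16 (R 4.3.3): TMM, filterByExpr by group, quasi-likelihood F-test, Benjamini-Hochberg over 12399 genes, threshold 0.05. The fit was tested on simulated data. CPM uses TMM-scaled sizes over the genes tested. Alternatives were DESeq2 1.42.0, its size factors, limma-voom 3.58.1, limma on the log2 table, no filter, a replicate block, leaving out each library, GC and length trend removal, counts per coding length and, added after seeing the data, a crossed pairing, counts per transcript length, and sums without IARS2 or without the cysteine and valine enzymes. A planned log2(value + 1) was not applied to the log2 table. Lengths and positions come from GENCODE 29 on GRCh38, promoters from RefSeq GRCh38.p14. Plots used Python 3.11.15 and matplotlib 3.10.9.

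Members and lists were chosen with earlier results of these data known. Fold changes are given for the 6 cytosolic and 4 mitochondrial genes with the smallest p, GARS and KARS, 3 genes per list, ATF4 and DDIT3. A listed marker and a listed charging gene are not reported here. Clopper-Pearson intervals and floors (3 counts) cover counting error only; edgeR intervals cover the spread between these libraries.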

Additional observations from a re-analysis of the deposited data

How the results depend on the processing

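Synthetase genes called were 0 under every alternative that kept all 4 libraries. With the GC and length trend removed, EARS2 had an unadjusted edgeR p under 0.05, beside 800 of all 12399 genes. Counts over all genes moved: no filter gave 20 higher and 43 lower, leaving out single libraries 2 to 106 higher and 15 to 97 lower, and the replicate block 0 higher and 1 lower. Replicate numbers did not pair the libraries (correlation of same-numbered deviations -0.283 over 6356 genes), and the crossed pairing called 55 higher, 42 lower and 0 synthetase genes. Partner and ATF4 target genes called were 2 without the filter, beside 63 of all 17737 genes. Under the crossed pairing they were 2, beside 97 of all 12399 genes. The cytosolic median ran from -0.012 to 0.058 and the mitochondrial from -0.028 to -0.014 with single libraries left out; the mitochondrial was -0.0018 on the deposited log2 values, whose differences are 37.6% of edgeR's, and -0.037 after trend removal. The difference in log2 compartment ratio, 0.031, was 0.016 on those values and 0.021 to 0.042 with single libraries left out. Cytosolic genes above 0 numbered 9 to 15 and mitochondrial 5 to 7. The mitochondrial share over the libraries, 19.7%, was 19.4% per coding length and 19.9% per transcript length. After trend removal ATF4 reversed to 0.027 and DDIT3 to 0.014. Leaving out single libraries reversed QARS (-0.094 to 6.6e-05), SARS (-0.099 to 0.0084), GARS (-0.039 to 0.0995), EEF1E1 (-0.14 to 0.24), MTFMT (-0.061 to 0.24), GATC (-0.060 to 0.14), QRSL1 (-0.082 to 0.18), SEPSECS (-0.096 to 0.030), ATF4 (-0.037 to 0.017) and DDIT3 (-0.17 to 0.14). Other named genes kept their sign but moved by over 1.5 times: EPRS (0.035 to 0.10), RARS (0.052 to 0.13), KARS (0.0044 to 0.040), EARS2 (0.087 to 0.19), TARS2 (-0.18 to -0.0027), AIMP2 (0.0062 to 0.16), DTD1 (0.012 to 0.092), SLC7A11 (0.21 to 0.47), DDIT4 (-0.37 to -0.075) and CHAC1 (0.31 to 0.76). The causes were not tested. The few counts of CARS and VARS2 leave their fold changes imprecise.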
